A study of Mus musculus with 24 samples.

Results

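The transcripts described here encode the core of endoplasmic reticulum (ER)-associated degradation, or ERAD: Edem1, Edem2, Edem3, Os9, Sel1l, Syvn1, Herpud1, Derl1, Derl2 and Derl3. They were chosen by gene symbol for their place in the pathway, and all 10 were found among the 32728 genes of the deposited count tables. RNA was sequenced from primary neuron and astrocyte cultures of PerkloxP/loxP mice, in which Cre recombinase deletes part of Eif2ak3, the gene of the ER stress kinase PERK. WT cultures had received a lentivirus with an inactive ΔCre, and Perk KO cultures a lentivirus with active Cre, so that every culture was transduced and carried the loxP alleles. Gene positions are those of the deposited tables (GRCm38.p6). At 14 days in vitro, cultures of each genotype received 5 µg/mL tunicamycin (TM) for 24 h, or the same volume of DMSO (control). The series text gives the exposure as 20 to 24 h. There were 8 groups of 3 libraries: WT and Perk KO, control and TM, in neurons and in astrocytes.

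ERAD removes proteins that fail to fold in the ER. Mannosidase-like EDEM proteins trim the glycans of such proteins, the lectin OS9 reads the trimmed glycan, and the adaptor SEL1L passes the protein to the membrane ubiquitin ligase HRD1, which is encoded by Syvn1. Derlins and HERPUD1 sit in the same membrane complex, and the substrate is pulled into the cytosol and degraded by the proteasome. Tunicamycin blocks the first step of N-linked glycosylation, so that newly made glycoproteins misfold. The unfolded protein response then acts through the sensors PERK, IRE1 and ATF6, and ERAD genes are textbook targets of the factors XBP1 and ATF6.

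The libraries held 16 to 25.9 M counts in genes. Levels are CPM, counts scaled to the size of the library, with TMM factors over the 12 libraries of a cell type, given as mean ± SD with n = 3. Differences are log2 estimates of edgeR's quasi-likelihood test with their standard error (SE), and a gene was called at a Benjamini-Hochberg adjusted p under 0.05 over all genes tested. The titles name the replicates as biological without saying whether they came from separate animals or cultures, so the p-values weigh a difference against the spread among 3 such libraries, which may be technical. Replicates of a group differed by a chi-square per gene of 7.06 to 70.6, with the highest value between Perk KO neurons TM replicates 1 and 2. In several groups 1 library stood apart from the other 2. WT astrocytes TM replicate 1 differed from them by 43.1 and 65.1, against 11 between those 2, and it had the highest level of all 10 core genes in its group. WT astrocytes control replicate 1 differed by 32.6 and 46, against 11.5, and WT neurons control replicate 3 by 26.6 and 28.7, against 10.1. WT neurons TM replicate 3 differed by 15.6 and 18.5, against 7.06. Each call that was lost or gained without a single library is named beside its result or counted in the closing section.

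The targeted gene Eif2ak3 was at 35 ± 2.76 CPM in WT control neurons and 5.21 ± 0.342 CPM in Perk KO control neurons. With TM the levels were 141 ± 6.96 and 12.3 ± 3.07 CPM. In control astrocytes Eif2ak3 stood at 26.4 ± 1.72 CPM with ΔCre and at 6.79 ± 0.824 CPM with Cre, and at 88.7 ± 15.2 and 13.6 ± 2.2 CPM with TM. Perk KO libraries were lower in all 4 comparisons (log2 difference -3.44 to -1.94, highest adjusted p 0.00261). The transcript was thus reduced but still counted in every Perk KO library. The counts cover the whole gene, so that reads outside the deleted part and reads from cells without recombination cannot be told apart.

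These were bulk RNA samples, in which fewer cells of a type and less RNA per cell cannot be told apart. All 11 neuron markers were counted in each neuronal group, with a summed level of 6304 to 6982 CPM in WT control, 3296 to 3604 in WT TM, 5478 to 5944 in Perk KO control and 3449 to 3868 in Perk KO TM neurons. With TM 10 of the 11 were called lower in WT and 9 of 11 in Perk KO neurons, against 24.8% and 10.8% of all genes tested. The WT control neurons also held 3229.6 to 3427 CPM of the 10 astrocyte markers. The summed astrocyte markers were at 1029 to 1145 CPM in WT TM neurons, 4281 to 4464 in Perk KO control neurons and 3441 to 4505 in Perk KO TM neurons. Astrocyte cultures held 242 to 376 CPM of neuron markers over all 4 groups, where Gad2 was at 0 in Perk KO control libraries. Their astrocyte markers were at 2511 to 3715 CPM in WT control, 689 to 773 in WT TM, 3316 to 4448 in Perk KO control and 2052 to 2678 in Perk KO TM libraries. Markers of microglia, of the oligodendrocyte lineage and of fibroblasts and mural cells were also lower in WT TM than in WT control neurons. The part of these shifts in the results on ERAD genes was not tested.

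Promoter windows of RefSeq (build GRCm38.p6), from 250 bases before to 50 bases after the annotated start, were matched by symbol for 9 of the 10 core genes, in 10 windows. They were searched on both strands for the ER stress response element (ERSE, CCAAT and CCACG with 9 bases of any kind between them), ERSE-II (ATTGG and CCACG with 1 base between them), the core of the unfolded protein response element (UPRE, TGACGTGG), the core of the C/EBP-ATF response element (CARE, TGATGNAA) and the CCACG that ends both ERSE forms. ERSE letters were found in Derl3 and Syvn1, against 0.119% of all 32851 windows. Herpud1 held ERSE-II, found in 0.0365% of windows, and a CARE core, found in 3.97%. No window of a core gene held the UPRE core, which 0.676% of all windows hold. The bare CCACG was in 9 of the 10 windows and in 32.8% of all windows. The 3 windows with a full ERSE or ERSE-II are shown, and capitals mark the matched letters. Of the motifs searched, Sel1l, Edem1, Edem2, Edem3, Os9 and Derl2 held the bare CCACG alone. The Derl3 stretch lies 186 to 108 bases before the start (chr10:75893212-75893290, plus strand) and holds the ERSE in reverse complement, with a bare CCACG just before it. The Herpud1 stretch lies 142 to 12 bases before the start (chr8:94386287-94386417, plus strand), with the CARE core in reverse complement first and ERSE-II after it. The Syvn1 stretch lies 74 to 1 bases before the start (chr19:6046502-6046575, plus strand).
Derl3: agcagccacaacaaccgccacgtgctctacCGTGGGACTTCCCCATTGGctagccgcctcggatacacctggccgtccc
Herpud1: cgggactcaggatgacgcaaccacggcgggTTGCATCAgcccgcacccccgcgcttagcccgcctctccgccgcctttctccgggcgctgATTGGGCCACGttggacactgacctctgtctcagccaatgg
Syvn1: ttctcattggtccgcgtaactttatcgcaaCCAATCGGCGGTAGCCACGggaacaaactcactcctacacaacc
A match describes the letters and does not show a bound site.

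In WT cultures TM raised nearly the whole core set. In WT neurons 9 of 10 core genes rose, where 27% of all 15546 genes tested were called higher, and the summed level of the 10 went from 769 ± 22.6 to 4119 ± 169 CPM. In WT astrocytes all 10 rose, against 25% of genes tested, and the sum went from 884 ± 3.79 to 4954 ± 853 CPM. The sum without WT astrocytes TM replicate 1 rests on libraries at 4773 and 4205 CPM, against 5883 in that replicate, and all 10 genes were still called without it. The median log2 difference of the core genes was 2.28 in neurons and 2.38 in astrocytes, against 0.04 and -0.01 over all genes tested.

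**Figure D1:**
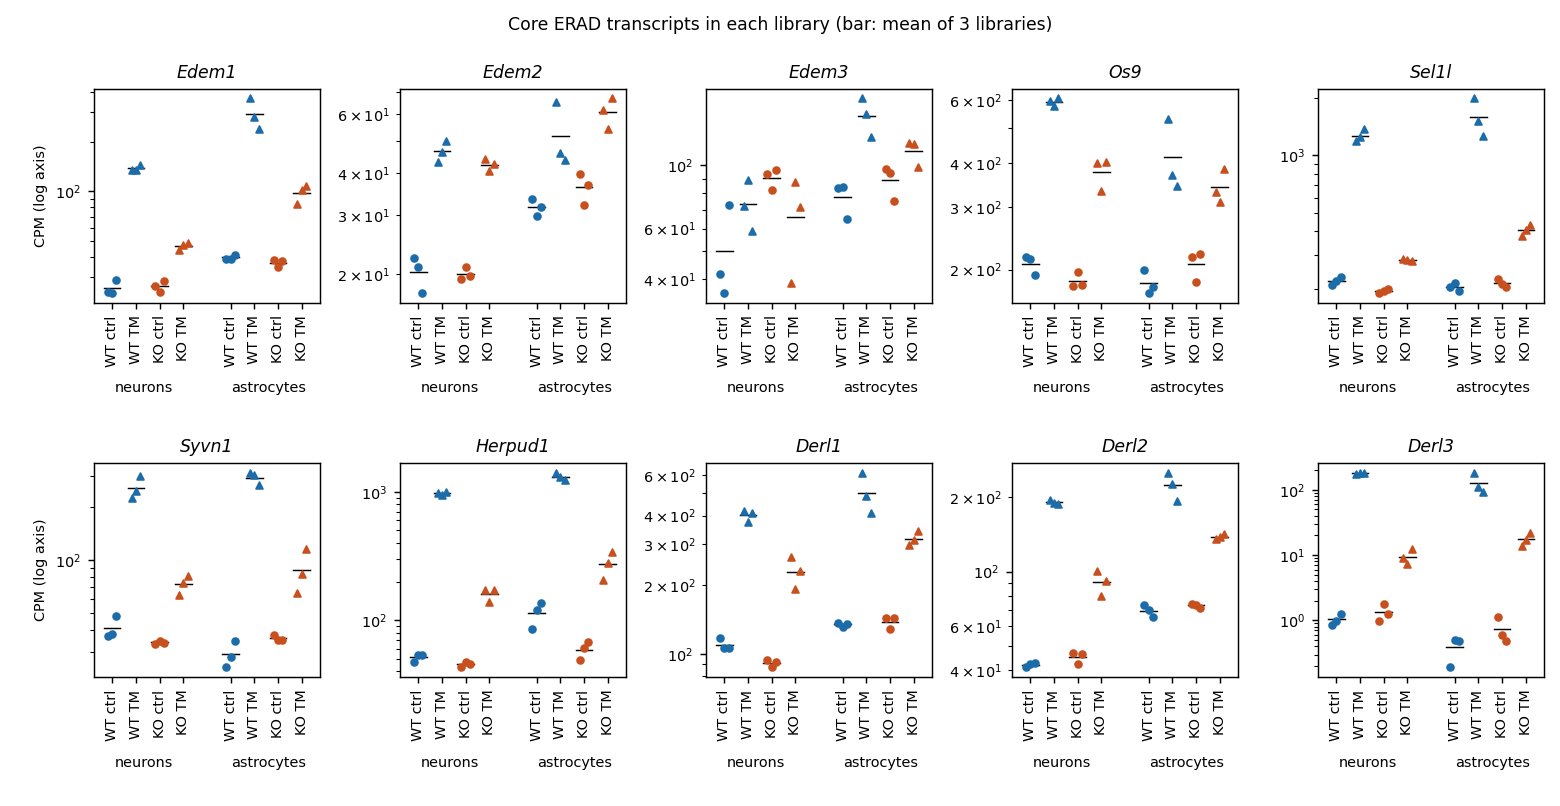
Level of each core ERAD gene in every library, as CPM on a log axis that differs between panels, by cell type, genotype (blue WT, orange Perk KO) and treatment (circles control, triangles TM). Bars are means of 3 libraries. For Herpud1 the WT TM libraries sit between 936 and 1403 CPM, above the 138 to 342 CPM of the Perk KO TM libraries.

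Perk KO cultures also responded, with smaller differences for most members. In Perk KO neurons 9 of 10 core genes rose, against 13.1% of genes tested, and their sum went from 735 ± 8.09 to 1374 ± 82.1 CPM. In Perk KO astrocytes 9 of 10 rose, against 5.55% of genes tested, and the sum went from 889.7 ± 32.5 to 1854 ± 180.1 CPM. The median log2 difference of the core genes was 1.05 and 1.06. Each of these 18 calls in Perk KO cultures, and each of the 19 in WT cultures, also passed under all alternatives and without any single library.

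**Figure D2:**
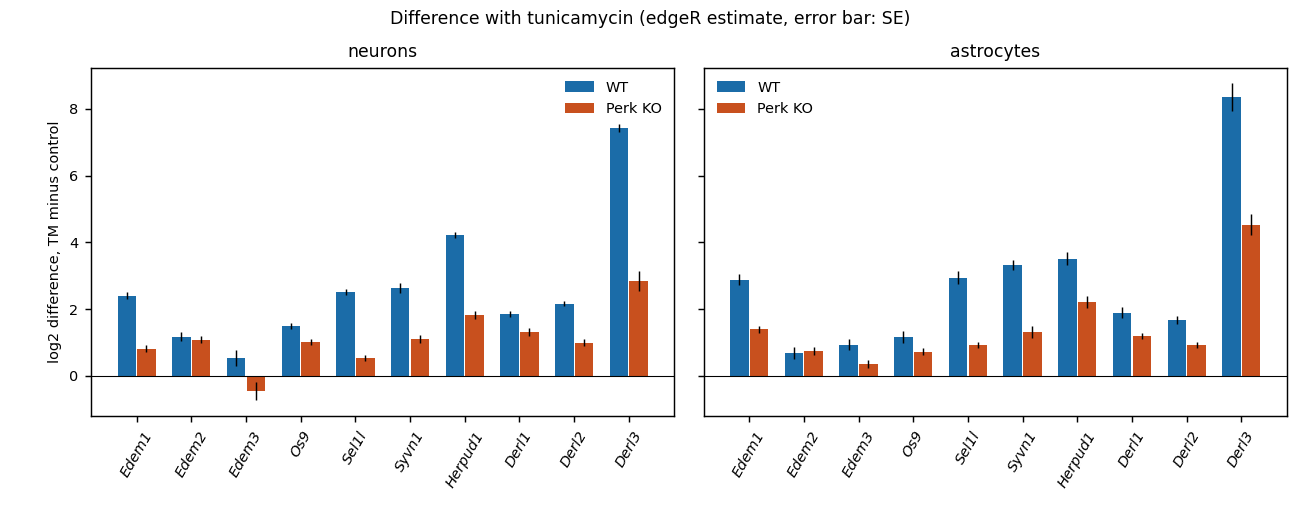
Log2 difference between TM and control libraries for each core gene in WT (blue) and Perk KO (orange) cultures, with SE, in neurons (left) and astrocytes (right). The WT bar is the higher for all genes but Edem2 in astrocytes, with Derl3 at 7.42 against 2.83 in neurons and 8.35 against 4.53 in astrocytes.

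Substrate recognition begins with the EDEM proteins, and Edem1 is known to speed the disposal of misfolded glycoproteins. Its log2 difference with TM was the highest of the EDEM genes in all groups but Perk KO neurons, where that of Edem2 was higher. Edem1 (chr6:108828641-108859356) was at 24.5, 24.2 and 29.1 CPM in WT control neurons and at 135, 135 and 145 CPM with TM. In Perk KO neurons it was at 26.5, 24.6 and 28.6 CPM in control and 44.2, 47.2 and 48.6 CPM with TM. Treated and control libraries did not overlap in either genotype, and the treated Perk KO libraries lay far below the treated WT libraries. The log2 difference with TM was 2.40 ± 0.10 in WT (adjusted p 7.82e-07) and 0.81 ± 0.11 in Perk KO neurons (adjusted p 0.00225). In astrocytes the libraries were at 38.8, 39.1 and 41.1 CPM in WT control and 365, 280.4 and 238 CPM in WT TM. Perk KO astrocytes had 38.5, 34.5 and 37.7 CPM in control and 84.2, 101 and 107 CPM with TM. The same order was seen there, with WT TM above Perk KO TM and both above control. Edem1 rose by a log2 difference of 2.88 ± 0.17 in WT and 1.39 ± 0.11 in Perk KO astrocytes (adjusted p 2.5e-05 and 9e-05).

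Edem2 (chr2:155701677-155729475), the EDEM protein known to start mannose trimming, differed from Edem1 in that its TM libraries overlapped between the genotypes. In neurons it went from 20.3 ± 2.41 to 46.5 ± 3.36 CPM in WT and from 20.0 ± 0.847 to 42.4 ± 1.71 CPM in Perk KO. The log2 differences were 1.17 ± 0.13 and 1.08 ± 0.10 (adjusted p 0.000102 and 0.000613). In astrocytes it went from 31.7 ± 1.81 to 51.6 ± 11.9 CPM in WT, where the TM libraries were at 65.3, 45.9 and 43.7 CPM, and from 36.3 ± 3.86 to 60.8 ± 6.37 CPM in Perk KO. Those differences were 0.68 ± 0.17 and 0.74 ± 0.12 (adjusted p 0.0114 and 0.00389). Under TM the libraries of the genotypes overlapped in both cell types, with a log2 difference of Perk KO minus WT of -0.07 ± 0.11 in neurons and 0.28 ± 0.17 in astrocytes (adjusted p 0.655 and 0.174). Without WT astrocytes TM replicate 1 the second became 0.48 and was called (adjusted p 0.00526).

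Edem3 (chr1:151755371-151822051), a further mannosidase of the family, varied widely between replicates in neurons. WT control neurons were at 41.7, 35.7 and 72.6 CPM and WT TM neurons at 71.9, 88.8 and 59.1 CPM. These ranges overlapped, and the log2 difference of 0.53 ± 0.25 was not called (adjusted p 0.108); without WT neurons control replicate 3 it was 0.86 (adjusted p 0.0021). Perk KO neurons had 93.6, 81.7 and 96.5 CPM in control and 38.7, 87.4 and 71.2 CPM with TM, a log2 difference of -0.46 ± 0.27 (adjusted p 0.246) that was -0.74 without Perk KO neurons TM replicate 2 (adjusted p 0.0285). It is the single core gene with a lower mean under TM in any group. In WT astrocytes Edem3 rose from 77.5 ± 10.7 to 149 ± 22.9 CPM (log2 difference 0.93 ± 0.16, adjusted p 0.00196). In Perk KO astrocytes it was at 88.7 ± 12 and 113 ± 12.1 CPM, 0.35 ± 0.13 (adjusted p 0.135), and with the replicate number as a block the same difference was called (adjusted p 0.000694).

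Os9 (chr10:127095650-127121131), the lectin that reads trimmed glycans and binds SEL1L, had the highest level per length of the set in all 4 control groups. It was at 217, 214 and 193 CPM in WT control and 597, 577 and 607 CPM in WT TM neurons, and at 180.4, 197 and 181 CPM in Perk KO control and 398, 332 and 401 CPM in Perk KO TM neurons. Treated and control libraries were apart in both genotypes. The log2 difference was 1.49 ± 0.08 in WT and 1.01 ± 0.10 in Perk KO neurons (adjusted p 2.5e-06 and 0.000805). In astrocytes Os9 went from 184 ± 14.6 to 415 ± 102 CPM in WT and from 207 ± 20.2 to 341 ± 38 CPM in Perk KO, 1.16 ± 0.18 and 0.72 ± 0.11 on the log2 scale (adjusted p 0.00142 and 0.00373). The WT TM astrocytes were uneven, at 531, 369.6 and 343 CPM.

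The ligase core is formed by Sel1l (chr12:91806043-91849157) and Syvn1 (chr19:6046576-6053712). Sel1l was at 209, 219.7 and 231 CPM in WT control neurons and 1180.3, 1245 and 1374 CPM in WT TM neurons. In Perk KO neurons it was at 190.2, 194 and 199 CPM in control and 285, 283 and 278 CPM with TM. The treated Perk KO libraries lay above their own controls but were closer to them than to the treated WT libraries. Sel1l rose by a log2 difference of 2.50 ± 0.09 in WT and 0.53 ± 0.08 in Perk KO neurons (adjusted p 4.39e-07 and 0.00329). In astrocytes the levels were 205, 214 and 195 CPM in WT control, 1985, 1508 and 1258 CPM in WT TM, 224, 212 and 204 CPM in Perk KO control and 378, 407 and 429 CPM in Perk KO TM. The pattern was the same, with log2 differences of 2.94 ± 0.19 in WT and 0.92 ± 0.09 in Perk KO (adjusted p 3.09e-05 and 0.000274). Without WT astrocytes TM replicate 1 the WT difference was 2.74.

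Syvn1, the ligase itself, followed Sel1l at a lower level. WT neurons had 37.2, 37.9 and 48.4 CPM in control and 226, 247 and 303 CPM with TM, and Perk KO neurons 33.6, 34.9 and 34 CPM in control and 63.4, 74.1 and 81.6 CPM with TM. All 4 groups stood apart from each other. The log2 difference with TM was 2.63 ± 0.15 in WT and 1.09 ± 0.12 in Perk KO neurons (adjusted p 3.05e-06 and 0.00108). In astrocytes Syvn1 went from 24.6, 28.3 and 34.6 to 314, 304 and 267 CPM in WT and from 37.6, 35.1 and 35 to 65.4, 83.9 and 116 CPM in Perk KO. The WT difference of 3.32 ± 0.15 corresponds to 10.0-fold and the Perk KO difference of 1.30 ± 0.18 to 2.46-fold (adjusted p 1.41e-05 and 0.00225). Per length, Syvn1 stayed below Sel1l in every library. The log2 ratio of Syvn1 to Sel1l was -1.59 ± 0.15 in WT control and -1.46 ± 0.11 in WT TM neurons, which overlapped, and -1.67 ± 0.04 and -1.11 ± 0.20 in Perk KO neurons, which did not (exact permutation p 0.1, two-sided, the smallest that 3 against 3 libraries can give).

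Herpud1 (chr8:94386438-94395377), a membrane protein with a ubiquitin-like domain that binds HRD1, had the highest level per length of the set in both WT TM groups. WT neurons had 47.3, 53.2 and 54 CPM in control and 979, 936 and 1000.3 CPM with TM. Perk KO neurons had 43, 47.3 and 45.6 CPM in control and 171, 138 and 172 CPM with TM. Control libraries of the genotypes were close to each other, and treated libraries were far apart. The log2 difference with TM was 4.22 ± 0.09, or 18.6-fold, in WT and 1.82 ± 0.11, or 3.53-fold, in Perk KO neurons (adjusted p 4.59e-08 and 0.000191). WT astrocytes had 85.5, 120.3 and 136 CPM in control and 1403, 1291 and 1232 CPM with TM. Perk KO astrocytes had 49, 60.7 and 67.3 CPM in control and 205, 278 and 342 CPM with TM. Here the genotypes were apart in control libraries too. Herpud1 rose by 3.51 ± 0.19 in WT and 2.21 ± 0.19 in Perk KO astrocytes (adjusted p 2.01e-05 and 0.000144).

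The derlins are membrane proteins of the rhomboid family that help move substrates out of the ER, and Derl3 changed by the largest factor of the set in all 4 TM comparisons. Derl3 (chr10:75893413-75895941) was nearly silent without stress, at 0.859, 0.992 and 1.27 CPM in WT control neurons, and reached 176, 181 and 179.8 CPM with TM. Perk KO neurons had 0.986, 1.78 and 1.24 CPM in control and 8.98, 7.2 and 12.2 CPM with TM. All treated libraries lay above all control libraries, but the treated Perk KO libraries stayed far below the treated WT libraries. The log2 difference was 7.42 ± 0.13, or 171-fold, in WT and 2.83 ± 0.30, or 7.11-fold, in Perk KO neurons (adjusted p 1.86e-08 and 0.000949). WT astrocytes had 0.191, 0.499 and 0.484 CPM in control and 182, 110.1 and 92.9 CPM with TM. Perk KO astrocytes had 1.14, 0.607 and 0.491 CPM in control and 13.9, 16.8 and 21.8 CPM with TM. The groups again did not overlap between TM and control, and TM replicate 1 was the high library in WT. The difference was 8.35 ± 0.41, or 325-fold, in WT and 4.53 ± 0.31, or 23.2-fold, in Perk KO astrocytes (adjusted p 1.67e-05 and 4.44e-05). The lowest astrocyte control library held only 4 Derl3 counts, which leaves the fold change less certain than its SE over the fit shows. WT control astrocytes held 4 to 9 counts, so in WT astrocytes Derl3 passed the filter on low counts only through the TM libraries. Without WT astrocytes TM replicate 1 the log2 difference was 8.01.

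Derl1 (chr15:57869502-57892448) and Derl2 (chr11:71007164-71019841) were expressed without stress and rose less. Derl1 went from 109 ± 6.24 to 401 ± 22.4 CPM in WT neurons and from 91.4 ± 3.61 to 228 ± 35.9 CPM in Perk KO neurons, with log2 differences of 1.85 ± 0.09 and 1.31 ± 0.12 (adjusted p 1.18e-06 and 0.000553). In astrocytes it went from 134 ± 2.9 to 504 ± 103 CPM in WT and from 138 ± 8.27 to 318 ± 22.4 CPM in Perk KO, 1.89 ± 0.16 and 1.20 ± 0.09. Derl2 went from 41.9 ± 0.876 to 190.3 ± 3.84 CPM in WT neurons and from 45.3 ± 2.57 to 90.4 ± 10.6 CPM in Perk KO neurons, 2.16 ± 0.07 and 0.99 ± 0.11. In astrocytes Derl2 went from 69.5 ± 3.67 to 223 ± 28.8 CPM in WT and from 73 ± 1.27 to 138 ± 3.07 CPM in Perk KO, 1.67 ± 0.13 and 0.92 ± 0.08. For both genes the treated Perk KO libraries lay between the controls and the treated WT libraries, with no overlap.

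The makeup of the derlin and EDEM families was described within each library. Shares were taken from counts divided by the deposited gene length, so that they need no scaling between libraries. Derl3 made up 1.36 ± 0.317% of derlin transcripts in WT control neurons and 38.4 ± 1.45% in WT TM neurons, but 2 ± 0.682% and 5.63 ± 1.29% in Perk KO neurons. In astrocytes its share was 0.402 ± 0.183% and 25.9 ± 3.25% in WT, and 0.73 ± 0.317% and 7.18 ± 1.09% in Perk KO. The Derl1 share was 85.1 ± 1.13% in WT control and 51.5 ± 1.63% in WT TM neurons, while it was 81.3 ± 0.365% and 81 ± 1.27% in Perk KO neurons, whose libraries overlapped (exact permutation p 0.7). Edem1 went from 22.8 ± 1.43% to 46.3 ± 2.62% of EDEM transcripts in WT neurons and from 17.1 ± 0.391% to 24.5 ± 2.19% in Perk KO neurons. In astrocytes the Edem1 share was 22.5 ± 2.01% and 54.2 ± 0.997% in WT, and 19 ± 1.42% and 29.9 ± 3.2% in Perk KO. Edem2 took a larger share than Edem1 in Perk KO TM neurons, at 41.7 ± 7.1%, and a smaller share in WT TM neurons, at 29 ± 2%. For the Derl3 and Edem1 shares, TM and control libraries did not overlap in any of the 4 groups, nor did WT TM and Perk KO TM libraries (exact permutation p 0.1 each, two-sided, the smallest possible).

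**Figure D3:**
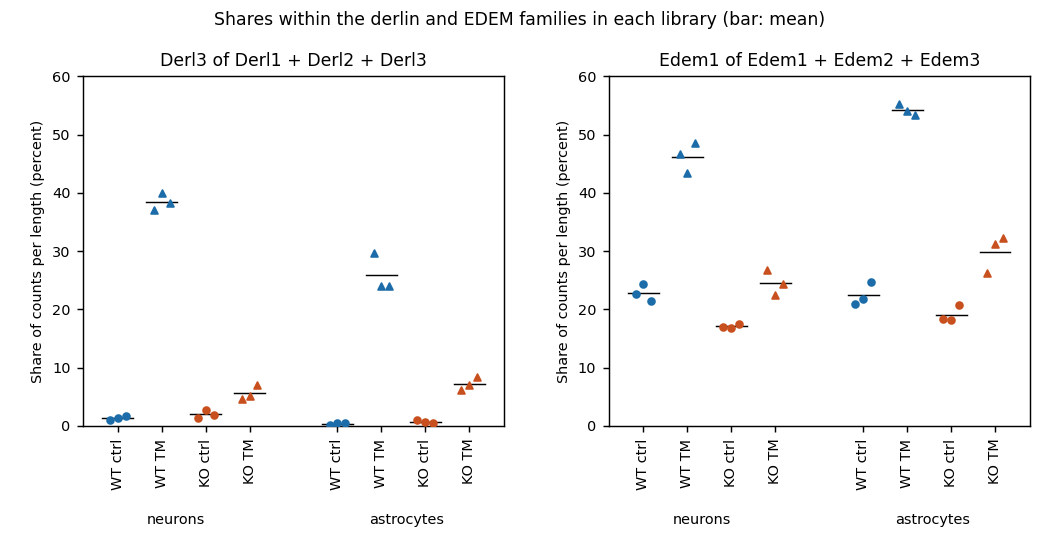
Derl3 as a percentage of derlin transcripts (left) and Edem1 as a percentage of EDEM transcripts (right), each from counts per length, in every library, with symbols as in the plot of levels. Bars are means of 3 libraries. The WT TM libraries sit between 24 and 40.0% for Derl3 and between 43.4 and 55.3% for Edem1, above all other libraries of their panel.

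Per length, the order of the core transcripts also differed with stress. In WT control neurons it ran from Os9 at 79 ± 5.04 CPM per kilobase, through Derl1 at 32.9 ± 1.87, Sel1l at 25.7 ± 1.31 and Herpud1 at 22.1 ± 1.57, down to Edem1 at 4.01 ± 0.424 and Derl3 at 0.522 ± 0.106. Syvn1 and Edem3, at 8.63 ± 1.31 and 7.83 ± 3.11, did not differ beyond their spread. In WT TM neurons Herpud1 led at 417 ± 13.9 CPM per kilobase, ahead of Os9 at 226 ± 5.79, Sel1l at 148 ± 11.5, Derl1 at 121 ± 6.73 and Derl3 at 89.9 ± 1.28, and the EDEM genes came last. Os9 stayed first in Perk KO TM neurons, at 143 ± 14.9 CPM per kilobase, where Herpud1 and Derl1, at 68.7 ± 8.11 and 68.5 ± 10.8, did not differ beyond their spread and Derl3 came last at 4.75 ± 1.28. Astrocytes gave a similar picture. In WT TM astrocytes Herpud1 led at 561 ± 37.2 CPM per kilobase, while Sel1l, Os9 and Derl1, at 185 ± 43.2, 158 ± 38.7 and 152 ± 30.9, overlapped in their spread. In Perk KO TM astrocytes Os9 and Herpud1, at 129.9 ± 14.5 and 118 ± 29.3, overlapped as well, and Derl3 was last at 8.79 ± 1.99.

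The comparison of Perk KO with WT asks how far the core set depends on PERK, and it shares its libraries with the TM comparisons above. Without stress few members differed. In control neurons only Edem3 was called, higher in Perk KO, where 12.2% of all genes tested were called higher. Edem3 was at 90.6 ± 7.87 CPM in Perk KO and 50.0 ± 19.8 CPM in WT control neurons (log2 difference 0.88 ± 0.23, adjusted p 0.0314). The call did not hold in a fit that shared the spread over all neuron libraries (adjusted p 0.0587), and it was lost without any single library other than WT neurons control replicate 3 (log2 difference 0.68 to 0.95, adjusted p 0.0638 to 0.11). No core gene was called lower by edgeR, where 9.16% of genes tested were. The Perk KO libraries of Derl1, Herpud1, Sel1l and Syvn1 all lay below those of WT, and over all genes tested 22.9% had such libraries, called or not. For Derl1 the difference of -0.25 ± 0.08 (adjusted p 0.0646) was called with the replicate number as a block (adjusted p 0.036). Derl2, at 0.13 ± 0.09 (adjusted p 0.346), changed sign to -0.32 with an offset for GC content.

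In control astrocytes only Herpud1 was called, lower in Perk KO, where 10.2% of genes tested were called lower. It was at 59 ± 9.25 CPM in Perk KO and 114 ± 25.9 CPM in WT, a log2 difference of -0.93 ± 0.18 (adjusted p 0.018). The Herpud1 call was lost without WT astrocytes control replicate 2 or 3 or without Perk KO astrocytes control replicate 1 or 2 (log2 difference -0.95 to -0.79, adjusted p 0.0531 to 0.0809). With the replicate number as a block, Herpud1 remained called, and Syvn1 and Edem3 were called higher in Perk KO, at 0.33 and 0.21 (adjusted p 0.0461 and 0.0415), where 4.71% of genes tested were called higher without the block. Without the block their adjusted p was 0.143 and 0.323.

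Under TM most of the core set was lower in Perk KO. In TM neurons 8 of 10 core genes were called lower than in WT, where 19.4% of all 16026 genes tested were called lower, with a median log2 difference of -1.25 against 0.02 over all genes. Derl3 stood at 5.28% of the WT mean (log2 difference -4.17 ± 0.19, adjusted p 1.8e-05) and Herpud1 at 16.5% (-2.53 ± 0.13, adjusted p 1.8e-05). The ligase genes followed, Sel1l at 22.3% (-2.10 ± 0.11) and Syvn1 at 28.2% (-1.76 ± 0.15). Edem1 was at 33.8% of WT (-1.50 ± 0.10), Derl2 at 47.5% (-1.01 ± 0.11), Derl1 at 56.8% (-0.75 ± 0.13) and Os9 at 63.4% (-0.59 ± 0.11). The adjusted p of these 6 genes was between 1.86e-05 and 0.00398. Edem2 at 91.1% and Edem3 at 89.8% of WT were not called, and the latter's log2 difference was -0.09 ± 0.27. All 8 calls held without any single library.

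In TM astrocytes 8 of 10 core genes were also called lower, but so were 31.2% of all 14927 genes tested. The median log2 difference of the core genes was -1.1, against 0.01 over all genes. The members had nearly the same order as in neurons. Derl3 was at 13.7% of the WT mean (-2.83 ± 0.27), Herpud1 at 21% (-2.21 ± 0.18), Sel1l at 25.5% (-1.93 ± 0.17), Syvn1 at 30% (-1.70 ± 0.19) and Edem1 at 33% (-1.56 ± 0.17). Derl2 and Derl1 were at 62 and 63% (-0.65 ± 0.11 and -0.63 ± 0.15). The adjusted p of these 7 genes was at most 0.00608, and without WT astrocytes TM replicate 1 their log2 differences ranged from -2.50 for Derl3 to -0.46 for Derl1 and remained called. Edem3, at 75.6% (-0.36 ± 0.14, adjusted p 0.0474), was lost without any single library other than WT astrocytes TM replicate 3 (log2 difference -0.41 to -0.25, adjusted p 0.0685 to 0.157). Os9, at 82.3% (-0.24 ± 0.17, adjusted p 0.248), was called with an offset for GC content (-0.52, adjusted p 0.0267), where the median of all genes was -0.16. Edem2 was at 118%.

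**Figure D4:**
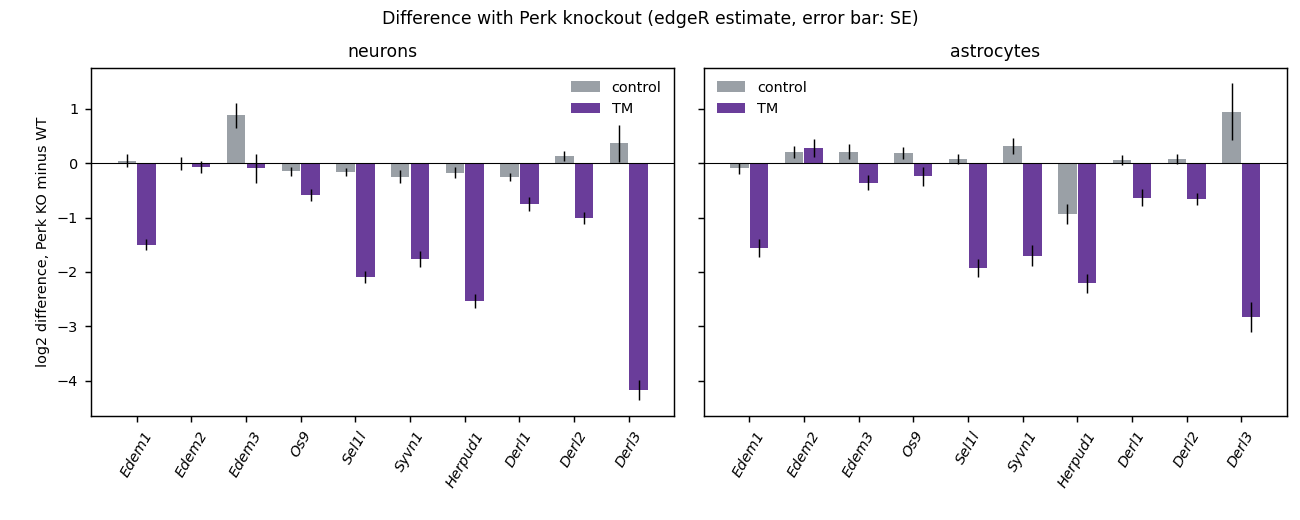
Log2 difference between Perk KO and WT libraries for each core gene in control (grey) and TM (purple) cultures, with SE, in neurons (left) and astrocytes (right). In the TM comparison Derl3 is lowest, at -4.17 in neurons and -2.83 in astrocytes, and Edem2 is near 0 in neurons at -0.07.

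Whether the TM response itself differed between genotypes was tested by the interaction of genotype and TM, as the log2 difference of TM minus control in Perk KO less that in WT. In neurons the response of 8 of 10 core genes was smaller in Perk KO, where 15.4% of genes tested had a lower and 14.5% a higher term. The terms were -4.61 ± 0.35 for Derl3, -2.43 ± 0.13 for Herpud1, -2.00 ± 0.11 for Sel1l, -1.62 ± 0.14 for Edem1 and -1.57 ± 0.20 for Syvn1. Those of Derl2, Derl1 and Os9 were -1.20 ± 0.12, -0.57 ± 0.14 and -0.51 ± 0.12. The adjusted p of the 8 was at most 0.0089, and all held without any single library. Edem2 was at -0.13 ± 0.15 (adjusted p 0.539). Edem3, at -1.03 ± 0.42 (adjusted p 0.0886), was called without WT neurons control replicate 3 or Perk KO neurons TM replicate 2 (-1.39 and -1.28, adjusted p 0.0168 and 0.0252).

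In astrocytes 8 of 10 core genes again had a smaller response in Perk KO, against 14.6% of genes tested with a lower term. The terms were -3.82 ± 0.64 for Derl3, -2.04 ± 0.25 for Syvn1, -2.03 ± 0.20 for Sel1l, -1.50 ± 0.20 for Edem1 and -1.31 ± 0.28 for Herpud1. Derl2, Derl1 and Edem3 were at -0.76 ± 0.14, -0.71 ± 0.18 and -0.60 ± 0.21, with an adjusted p of 0.0417 for Edem3 that was lost in 8 of 12 fits without a single library (adjusted p 0.0537 to 0.0932). Those 8 libraries were each of the 3 Perk KO TM libraries, Perk KO control replicates 1 and 2, WT TM replicates 1 and 2 and WT control replicate 3, and the term then ran from -0.65 to -0.49. Edem2 was at 0.04 ± 0.21 (adjusted p 0.896). Os9, at -0.46 ± 0.22 (adjusted p 0.126), was called with the replicate number as a block (-0.44, adjusted p 0.0449).

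WT neurons and WT astrocytes differed in several members at rest, although here 35.8% of genes tested were called higher and 35.2% lower in neurons. The astrocyte markers summed to 3229.6 to 3427 CPM in WT control neurons and 2511 to 3715 CPM in WT control astrocytes, each scaled within its cell type. Of these 10 markers 3 were called higher and 4 lower in neurons. Comparisons of cell types here and below are thus between cultures that both held astrocyte marker RNA. With scaling over the 6 libraries compared, Herpud1 was at 53.6 ± 3.52 CPM in neurons and 109 ± 24.2 CPM in astrocytes (log2 difference -0.99 ± 0.17). Derl2, Edem2 and Edem1 were also lower in neurons, by -0.58 ± 0.11, -0.49 ± 0.14 and -0.47 ± 0.12. Derl1, at -0.14 ± 0.10, and Edem3, at -0.49 ± 0.25, were not called (adjusted p 0.218 and 0.107), but Edem3 was without WT neurons control replicate 3 (-0.82, adjusted p 0.00161). Derl3, at 1.08 ± 0.205 and 0.373 ± 0.165 CPM, was higher in neurons (1.56 ± 0.45), as was Syvn1 (0.65 ± 0.17), but with the GC offset neither was called (1.03 and 0.11, adjusted p 0.0671 and 0.559). Derl3 held 17 to 20 counts in WT control neurons and 4 to 9 in WT control astrocytes. It passed the filter on low counts only through the neurons, so its call is not taken as support for a difference. Sel1l and Os9, called higher at 0.26 ± 0.10 and 0.33 ± 0.11, changed sign with the GC offset to -0.13 and -0.22. That offset moved the median of all genes tested from -0.03 to -0.27, and both genes stayed above it. Their calls were also lost in 5 and 4 of 6 fits without a single library (adjusted p 0.0539 to 0.136 and 0.0708 to 0.104). The calls of Sel1l and Os9 were lost without WT astrocytes control replicates 2 or 3 and without WT neurons control replicate 2, that of Sel1l also without WT astrocytes control replicate 1 or WT neurons control replicate 3, and that of Os9 also without WT neurons control replicate 1. With the replicate number as a block the Sel1l call was lost (0.26, adjusted p 0.0847).

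Under TM, 5 core genes differed between the WT cell types, where 36.6% of genes tested were called higher and 33.9% lower in neurons. Edem1 was lower in neurons, at 135 ± 6.62 against 276 ± 56.4 CPM (-1.03 ± 0.15), as were Edem3 (-0.97 ± 0.16) and Herpud1 (-0.37 ± 0.09). Os9 was higher, at 579 ± 17.6 against 389 ± 89.5 CPM (0.58 ± 0.15), and Derl3 was higher at 0.55 ± 0.21, but with the GC offset these became -0.12 and -0.19. The offset moved the median of all genes tested from 0.01 to -0.38, and both genes stayed above it. Derl1, Sel1l, Derl2, Syvn1 and Edem2, at -0.27, -0.26, -0.17, -0.13 and -0.09, were not called (adjusted p 0.114 to 0.633). Without WT astrocytes TM replicate 3, Derl1, Sel1l and Derl2 were called lower in neurons (-0.40, -0.40 and -0.27, adjusted p 0.021, 0.0326 and 0.0405). The Derl3 call was kept only without WT astrocytes TM replicate 1 among the fits that left out a library (adjusted p 0.106 to 0.148 in the other 5).

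The response to TM was compared between cell types by the interaction of cell type and TM. Neuron cultures also held astrocyte marker RNA, and its part in these terms was not tested. In WT, Syvn1, Edem1 and Sel1l rose less in neurons than in astrocytes, by -0.87 ± 0.22, -0.66 ± 0.20 and -0.61 ± 0.21 on the log2 scale (adjusted p 0.0115, 0.0308 and 0.0488), where 12.5% of genes tested had a lower term. The Syvn1 term held without any single library. The Edem1 term was lost without WT neurons control replicate 3, WT neurons TM replicate 1 or 2, or WT astrocytes control replicate 1 or 2 (adjusted p 0.0635 to 0.0905), and the Sel1l term without any library but WT astrocytes TM replicate 3 (adjusted p 0.0515 to 0.117). With the replicate number as a block the Sel1l term was lost as well (-0.60, adjusted p 0.059). Herpud1, at 0.53 ± 0.20 (adjusted p 0.0653), was called higher by DESeq2 (0.58, adjusted p 0.0215) and without WT astrocytes control replicate 1 (0.80, adjusted p 0.00249). Without WT astrocytes TM replicate 1, Derl2 (0.42, adjusted p 0.0343), Edem2 (0.53, adjusted p 0.0424) and Herpud1 (0.60, adjusted p 0.0457) were all called higher in neurons, where 12.4% of genes tested had a higher term with that library. With it, the terms of Derl2, Edem2 and Os9 were 0.32, 0.31 and 0.16, and those of Derl1, Edem3 and Derl3 -0.21, -0.57 and -1.11, none of them called (adjusted p 0.138 to 0.627). In Perk KO, Derl3 and Edem1 rose less in neurons, by -1.70 ± 0.47 and -0.58 ± 0.15 (adjusted p 0.0353 and 0.03), against 4.78% of genes tested, and each was lost in 7 of 12 fits without a single library (adjusted p up to 0.0959 and 0.0799, term -1.74 to -1.44 for Derl3 and -0.62 to -0.51 for Edem1). Both were lost without Perk KO astrocytes TM replicate 2 or 3, Perk KO astrocytes control replicate 2 or 3, Perk KO neurons TM replicate 1 or Perk KO neurons control replicate 3. Derl3 was also lost without Perk KO neurons control replicate 2, and Edem1 without replicate 1 of that group. Sel1l, at -0.38 ± 0.12 (adjusted p 0.0523), was called by DESeq2 (-0.43, adjusted p 0.00123), with the GC offset (-0.40, adjusted p 0.041), and without Perk KO astrocytes TM replicate 1 or Perk KO neurons TM replicate 2 (-0.42 and -0.39, adjusted p 0.0481 and 0.0425). Edem3, at -0.80 ± 0.32 (adjusted p 0.127), was called without Perk KO neurons TM replicate 2 (-1.06, adjusted p 0.0189). The terms of Edem2, Os9, Derl1 and Derl2 were 0.34, 0.30, 0.12 and 0.08, and those of Syvn1 and Herpud1 -0.20 and -0.39, none called (adjusted p 0.173 to 0.752).

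The dependence on Perk was not called different between neurons and astrocytes for any core gene by edgeR, where 5.51% of all genes tested had a called 3-way term. At an unadjusted p under 0.05 there was 1 core gene, Herpud1, with a term of -0.99 ± 0.32 (adjusted p 0.0786). DESeq2 and the fit with the replicate number as a block each called this 1 gene, at -0.94 and -0.96 (adjusted p 0.0491 and 0.0396). It was also called without WT astrocytes control replicate 1 or without Perk KO astrocytes TM replicate 1 (-1.16 in both, adjusted p 0.0255 and 0.0269). The terms of the others were 0.60 ± 0.34 for Syvn1, 0.27 ± 0.23 for Derl1, 0.16 ± 0.23 for Sel1l, 0.08 ± 0.26 for Os9 and 0.01 ± 0.25 for Edem1, and -0.04 ± 0.27 for Edem2, -0.30 ± 0.50 for Edem3, -0.31 ± 0.18 for Derl2 and -0.66 ± 0.76 for Derl3.

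A wider list of 62 other ERAD genes moved less uniformly. With TM, 27 rose and 6 fell in WT neurons (median log2 difference 0.24), 23 rose and 2 fell in Perk KO neurons (0.09), 32 rose and 10 fell in WT astrocytes (0.34), and 12 rose and 2 fell in Perk KO astrocytes (0.07). The medians over all genes tested were 0.04, 0.02, -0.01 and 0.0. Called lower over all genes were 24.8%, 10.8%, 27.7% and 4.6%, and called higher, as above, 27%, 13.1%, 25% and 5.55%. Of the 24 ligases and membrane partners, 12 were higher in WT neurons, 17 in Perk KO neurons, 12 in WT astrocytes and 8 in Perk KO astrocytes. Of the 23 genes of extraction and transfer, 9, 2, 13 and 1 were higher in the same order, and of the 5 conjugating enzymes 2, 1, 5 and 1. In Perk KO cultures the extraction counts did not exceed the shares over all genes. Of the 10 other recognition genes, 4, 3, 2 and 2 were higher and 3, 0, 4 and 2 lower. Selenos, the selenoprotein that links derlins to the extraction ATPase p97, had the smallest p of the list's higher genes in all 4 comparisons. Its log2 difference was 2.37 ± 0.09 in WT and 1.87 ± 0.16 in Perk KO neurons, and 2.43 ± 0.13 in WT and 2.10 ± 0.09 in Perk KO astrocytes. Rhbdd1, an ER rhomboid protease, rose by 2.09 ± 0.10 in WT and 1.17 ± 0.13 in Perk KO neurons and by 1.53 ± 0.12 in WT astrocytes. The ligase gene Rnf185 rose in WT neurons (1.55 ± 0.09), Perk KO neurons (0.46 ± 0.10) and WT astrocytes (1.10 ± 0.11). Aup1, which recruits a conjugating enzyme, rose in Perk KO neurons (0.98 ± 0.12), WT neurons (1.07 ± 0.09) and WT astrocytes (0.60 ± 0.11). Values of Rnf185 and Aup1 in Perk KO astrocytes are not given here. Txndc11, a redox partner of EDEM proteins, rose in astrocytes of both genotypes (1.90 ± 0.12 and 1.61 ± 0.13). It also rose in WT and Perk KO neurons (1.17 ± 0.09 and 0.67 ± 0.12). Of the Golgi mannosidase genes, Man1a was lower with TM in WT neurons (-0.90 ± 0.13) and WT astrocytes (-1.19 ± 0.24). Man1c1 was lower in astrocytes (-1.59 ± 0.16 in WT and -0.90 ± 0.12 in Perk KO) and in WT neurons (-0.59 ± 0.15). The p97 inhibitor gene Svip was lower in WT astrocytes (-1.45 ± 0.20).

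**Figure D5:**
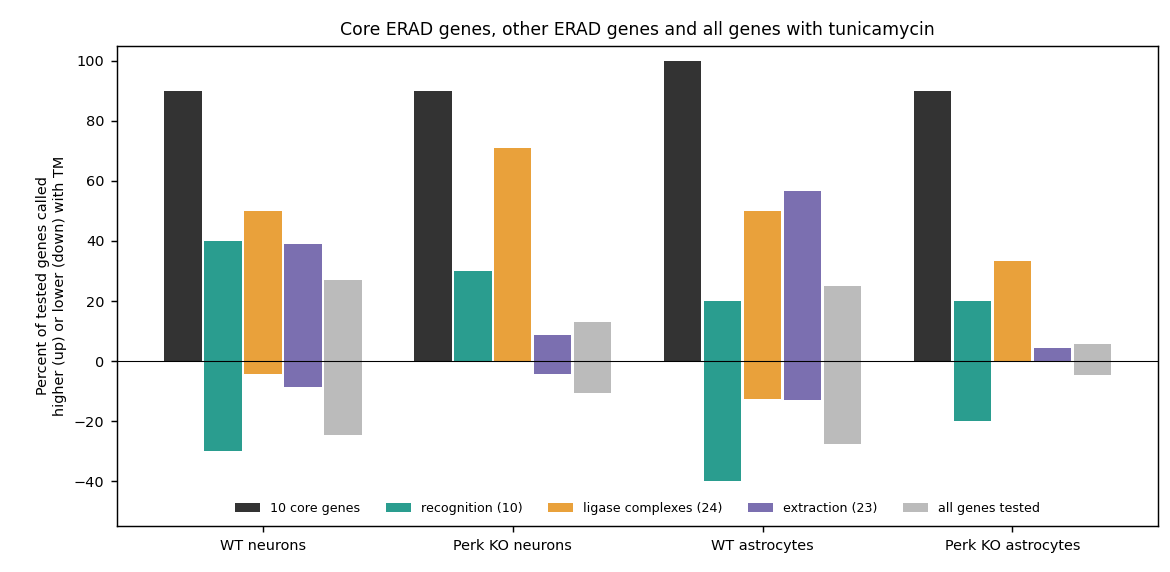
Percentage of tested genes called higher (upward) or lower (downward) with TM among the 10 core genes, 10 other genes of substrate recognition, 24 genes of ligases and their partners, 23 genes of extraction and transfer, and all genes, in the 4 TM comparisons. The 5 conjugating enzymes are not drawn. The core genes reach 9 or 10 of 10 higher in each comparison, and the other lists have called genes in both directions in WT cultures.

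In the comparison of Perk KO with WT under TM, 21 of the 62 were lower and 8 higher in neurons, and 25 lower and 14 higher in astrocytes, with a median log2 difference of -0.18 in each. Called lower among all genes tested were 19.4% in neurons and 31.2% in astrocytes, and called higher 20.7% and 32.1%. Genes of extraction and transfer made up many of the lower ones, with 12 of 23 in neurons and 13 of 23 in astrocytes. Erlin1, a scaffold of ER membrane ligases, was lower in both, at -1.26 ± 0.10 in neurons and -1.92 ± 0.15 in astrocytes, whereas its relative Erlin2 was higher, at 0.63 ± 0.10 and 1.29 ± 0.11. Svip was higher as well, at 1.41 ± 0.16 and 1.82 ± 0.17. Rnf185 was lower in neurons (-1.22 ± 0.10), and Rhbdd1 and the p97 cofactor gene Ufd1 were lower in astrocytes (-1.71 ± 0.09 and -1.23 ± 0.10). These genes were named for their small p in that cell type, which does not mark a difference between cell types. In TM neurons Rhbdd1 was also at 51.8 CPM in Perk KO and 91.5 CPM in WT, and Ufd1 at 91.7 and 155 CPM. In astrocytes all 5 conjugating enzymes were lower in Perk KO under TM. The adjusted p of each gene's log2 difference given here was at most 0.0019.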

How the data were processed

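Per the submitters' processing notes, the authors used fastp, HISAT2 and featureCounts with the build GRCm38.p6, and DESeq2 for their own comparisons (roles and versions not given in the sources used here). Per the file headers, each of the 8 deposited tables holds raw counts per gene, the authors' log2 fold changes and p-values, which were not used as results, and gene length in bases. Each library's counts stood in 2 tables and 0 differed. The 96 per-sample columns of other normalized values were not used. The library kit named in the labels does not mark strand, so reads of overlapping genes cannot be told apart. A gene missing from 1 of a library's tables had at most 1 count.

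Raw counts were fitted in R 4.3.3 with edgeR 4.0.16 (TMM, quasi-likelihood test) over the libraries of each comparison only, for genes averaging 10 counts or more per library, which all 10 core genes passed in every comparison, with Benjamini-Hochberg adjustment over all genes tested. In WT control astrocytes Derl3 held 4 to 9 counts and passed only through the other groups of its comparisons. DESeq2 1.42.0, other size factors, no filter on low counts, a replicate block, an offset for GC content, a shared fit of the cell type and leaving out each library were the alternatives. The fit was also run on simulated data, with an outcome not given here. Those data had independent libraries, so they cannot show how outlying or paired libraries affect the calls. All core genes are named in each comparison, and of the wider ERAD list up to 3 called genes with the smallest p in each direction, except an item that is not reported here. The core genes and lists were chosen with earlier results of these data known. Same-numbered astrocyte libraries deviated together in all 18 pairs of groups and numbers (r 0.24 to 0.62), as did WT and Perk KO neurons of 1 treatment (r 0.2 to 0.58), so blocked values are given there where they changed a call. Pairing across cell types was not checked, and the blocked values printed for those comparisons share only a number. Over all neuron groups only 10 of 18 pairs exceeded 0.1 (r -0.61 to 0.58). Family shares used an exact permutation test over 3 against 3 libraries.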

Additional observations from a re-analysis of the deposited data

Results flagged for a closer look

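For 21 core gene results the test of the difference between effects was called. All values are interaction terms of edgeR's quasi-likelihood test on the log2 scale, and none is explained here. The TM response was smaller in Perk KO than in WT neurons for Derl3 (-4.61), Herpud1 (-2.43), Sel1l (-2.00), Edem1 (-1.62), Syvn1 (-1.57), Derl2 (-1.20), Derl1 (-0.57) and Os9 (-0.51). It was smaller in Perk KO than in WT astrocytes for Derl3 (-3.82), Syvn1 (-2.04), Sel1l (-2.03), Edem1 (-1.50), Herpud1 (-1.31), Derl2 (-0.76), Derl1 (-0.71) and Edem3 (-0.60). It was smaller in neuron than in astrocyte cultures for Syvn1 (-0.87), Edem1 (-0.66) and Sel1l (-0.61) in WT, and for Derl3 (-1.70) and Edem1 (-0.58) in Perk KO. Of all genes tested, 15.4%, 14.6%, 12.5% and 4.78% had a lower term, in the order given. Between cell types, fits without a single library lost the calls of Sel1l (11 of 12 fits) and Edem1 (5 of 12) in WT. They also lost those of Derl3 and Edem1 in Perk KO (7 of 12 each). The Edem3 call between genotypes in astrocytes was lost in 8 of 12 such fits. The terms within a cell type share their WT libraries with the terms between cell types. In the same neuron cultures the 10 astrocyte markers had higher genotype by TM terms in 9 cases, with a median of 1.49, against 14.5% of all genes tested. In astrocytes they had higher terms in 5 cases, with a median of 1.19, against 2992 of 15114 genes tested. The part of these markers in the core gene terms was not tested.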

How the results depend on the processing

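Of 2551 values of core genes and Eif2ak3 under alternatives, 2391 kept direction and side of the threshold, 86 lost a call, 64 gained one and 10 reversed. A further 60 sign changes of uncalled values near 0 were not counted as reversals. The calls of core genes that rose with TM, that were lower in Perk KO TM neurons and that had a smaller response in Perk KO neurons kept direction and threshold under all alternatives. The cause of the following changes was not tested. With the GC offset, alone and with the replicate block, Derl2 in control neurons became -0.32 and -0.32, and for neurons against astrocytes Sel1l became -0.13 and -0.13 and Os9 -0.22 and -0.21 in control, and Derl3 -0.19 and -0.13 and Os9 -0.12 and -0.09 with TM. That offset moved the median of all genes to -0.27 in control and -0.38 in TM for neurons against astrocytes, to 0.16 for TM in WT astrocytes, to -0.16 for Perk KO against WT in TM astrocytes and to -0.18 for genotype by TM in astrocytes. The Sel1l, Os9 and Derl3 values given for neurons against astrocytes lay above the median of their comparison.

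The replicate block, alone, gave 1 core gene lower in Perk KO control neurons (0 without pairing), 2 higher in Perk KO control astrocytes (0 without) and 1 lower 3-way term (0 without). With the GC offset and the block these were 3, 3 and 1. For neurons against astrocytes, both GC offsets left 0 core genes higher in control (4 otherwise) and 0 higher (2 otherwise) and 7 lower (3 otherwise) with TM. The shared fit gave 0 higher in Perk KO control neurons, and for neurons against astrocytes 2 higher in control and 1 higher and 6 lower with TM. No filter on low counts gave 2 higher in control for neurons against astrocytes, and for cell type by TM in WT 1 higher and 1 lower (0 and 3 otherwise). DESeq2 and its size factors also gave 1 higher there, and DESeq2 1 lower 3-way term.

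Without single libraries, the counts that moved to or from 0 or by a large factor ranged as follows: Perk KO TM astrocytes against WT 0 to 1 higher, Perk KO control astrocytes 0 to 1 lower, Perk KO control neurons 0 to 1 higher and 0 to 1 lower, TM in Perk KO neurons 0 to 1 lower, cell type by TM in Perk KO 0 to 4 lower, in WT 0 to 3 higher and 1 to 3 lower, the 3-way term 0 to 1 lower, and neurons against astrocytes 2 to 3 higher in control and 1 to 2 higher and 3 to 6 lower with TM. Smaller moves of other counts are not listed here, and the genes behind them are named beside their results.

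Shares of counts without division by length changed the Derl3 share with TM by 22.6 percentage points in WT neurons, 1.91 in Perk KO neurons, 14.5 in WT astrocytes and 3.32 in Perk KO astrocytes, and by -20.4 and -11 for Perk KO against WT in TM neurons and astrocytes. The Edem1 share changed by 26.3 with TM in WT neurons, 11.2 in Perk KO neurons and -7.95 for Perk KO against WT in control neurons. Depth limited Derl3 in control libraries, where the lowest count was 4.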

Other observations

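For each core gene, the gene with the most similar profile over the 12 libraries of a cell type was looked up by Pearson's r of log2 CPM, among 11690 genes in neurons and 11141 in astrocytes with a mean of at least 100 counts. These are descriptions over libraries that share groups and treatment, with no test. In neurons Derl3 was most like Pdia4, a disulfide isomerase of the ER (r = 0.998), Os9 most like its relative Pdia6 (r = 0.997), Derl1 most like Sec61a1, the pore of the ER translocon (r = 0.997), and Syvn1 most like Hyou1, an ER chaperone (r = 0.994). Sel1l was most like Iars, a cytosolic isoleucyl-tRNA synthetase (r = 0.995), Edem1 most like Vegfa, a secreted angiogenic factor (r = 0.998), and Edem2 most like the amino acid transporter subunit Slc3a2 (r = 0.991). In neurons Herpud1 was closest to 1810010H24Rik (r = 0.998), Derl2 to Cnppd1 (r = 0.997) and Edem3 to Dr1 (r = 0.988). In astrocytes none of these pairs recurred. There Derl1 was most like the cargo receptor Surf4 (r = 0.998), Herpud1 most like Wfs1, an ER membrane protein (r = 0.998), Sel1l most like the ER calcium pump Atp2a2 (r = 0.995), Derl2 most like the transport protein Tmed2 (r = 0.996), and Edem1 most like the SNARE Sec22b (r = 0.996). Derl3 was closest to the mannose enzyme subunit Gmppb (r = 0.995), Syvn1 to the adaptor Ticam1 (r = 0.994), Os9 to Ssr4 (r = 0.989), Edem3 to Sema3c (r = 0.986) and Edem2 to Pgrmc2, with the lowest value of the set (r = 0.971).

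Without stress, 8 of the 62 genes of the wider ERAD list were higher and 12 lower in Perk KO neurons, where 12.2% of all genes tested were called higher and 9.16% lower. The higher count is close to the share over all genes. The deubiquitinase gene Yod1 was higher by 1.52 ± 0.21 and Svip by 0.95 ± 0.19 on the log2 scale, and Insig1, a sterol-regulated partner of ER ligases, was lower at -0.55 ± 0.09 (edgeR adjusted p 0.00706, 0.0135 and 0.00958). In control astrocytes 4 were higher and 6 lower, close to the 4.71% and 10.2% over all genes. The lower ones included Rhbdd1 at -0.79 ± 0.12 and Erlin1 at -0.67 ± 0.11 (adjusted p 0.0102 and 0.0121). For 3 of the 62 genes the 3-way term was called, close to the 5.51% over all genes: Insig2 at 0.84 ± 0.18, Insig1 at 0.98 ± 0.23 and the ER ligase gene Trim13 at -1.88 ± 0.33 (adjusted p 0.00812, 0.0152 and 0.00154).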
